A study of Mus musculus with 18 samples.

Results

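The genes described here are 10 transcription factors of mesenchymal lineages: Twist1, Twist2, Prrx1, Tcf21, Meox2, Osr1, Foxf1, Tbx5, Tbx15 and Snai2. They were taken by name, as factors known to mark or pattern embryonic mesenchyme, from a table of 55487 genes, and all 10 were found in it. They were measured in mouse embryonic fibroblasts (MEFs), cells grown out of the connective tissue of mouse embryos. The MEFs spent 24 h in full growth medium with serum and either vehicle (0 µM uracil, the controls), 10 µM uracil or 30 µM uracil. Uracil is a pyrimidine base, and the comparison asks whether adding it moved the RNA of these factors. Each dose had 6 libraries of total RNA, which carried the replicate numbers 1 to 6. All groups shared the same cell type, and the labels give no genotype, strain or embryo age.

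Mesenchyme forms the loose tissue of the embryo from which limbs, body wall, heart wall and connective tissue arise. Each region of it carries its own set of factors, and fibroblasts keep much of that set in culture, so such genes record where a fibroblast came from. Twist1, Twist2 and Tcf21 are basic helix-loop-helix (bHLH) proteins that pair with the E proteins Tcf3, Tcf4 and Tcf12 and bind a short sequence called the E-box. Prrx1 and Meox2 are homeobox proteins, Tbx5 and Tbx15 are T-box proteins, Foxf1 is a forkhead protein, and Osr1 and Snai2 are zinc finger proteins. In the embryo, Tbx5 is known for the forelimb and the heart, Prrx1 for limb bud mesenchyme, Meox2 for somites and limb muscle, Foxf1 for the mesoderm around the gut, and Tcf21 for the mesenchyme of the kidney, lung and epicardium. Snai2 represses epithelial genes and acts in neural crest and mesenchyme.

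The libraries held 3.964 to 20.78 M counts in genes, and 3 of the 18 stood apart. Control replicate 1 had 54.2% unaligned read pairs, the replicate 6 library at 30 µM had 37.9% and that at 10 µM had 5.24%, against 1.72% to 3.59% in the other 15 libraries, which had 11.6 to 20.78 M counts. The study left out a vehicle sample and a sample of the highest dose because they held human RNA, and the labels do not say which. Results are therefore given with all 18 libraries and with the 15. The study kept all 6 samples at 10 µM, so the 15 are not the set that it used. The summed level of 8 fibroblast markers ran from 20100 to 24300 CPM (counts of a gene relative to the library size, after TMM scaling) in 16 libraries. It reached 33300 in control replicate 1 and 50900 in 30 µM replicate 6. Most of the sum was collagen RNA, with medians of 7690 CPM for Col1a1, 9600 for Col1a2 and 4070 for Col3a1. The lowest median of the 8 was that of Lum, at 3.27 CPM. Of the marker lists for endothelium, blood cells and skeletal muscle, none exceeded 11.8 CPM in sum in any library, and Myod1, the defining muscle factor, was at 0 counts in all 18. Epithelial markers summed to between 5.82 and 42 CPM, mesothelial markers to between 113 and 390 CPM, and neural markers, mostly Tubb3, to between 17.8 and 45.8 CPM.

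By GENCODE M39 on the GRCm39 build, 3 of the genes lie on chromosome 12: Osr1 (ENSMUSG00000048387) at 9538061 to 9631513, Twist1 (ENSMUSG00000035799) at 34007645 to 34009828 and Meox2 (ENSMUSG00000036144) at 37158533 to 37229533. Twist2 (ENSMUSG00000007805) at 91729176 to 91796542 and Prrx1 (ENSMUSG00000026586) at 163041844 to 163142033 lie on chromosome 1. Tbx15 (ENSMUSG00000027868) is on chromosome 3 at 99147697 to 99294185 and Tbx5 (ENSMUSG00000018263) on chromosome 5 at 119970733 to 120023284. Foxf1 (ENSMUSG00000042812) is on chromosome 8 at 121811074 to 121814883, Tcf21 (ENSMUSG00000045680) on chromosome 10 at 22692803 to 22696073, and Snai2 (ENSMUSG00000022676) on chromosome 16 at 14523425 to 14527252. Prrx1 and Tcf21 are read from the minus strand and the others from the plus strand. Exons of Twist2, Prrx1, Tcf21, Tbx5 and Tbx15 overlap exons of non-coding genes on the other strand, and Foxf1 overlaps a predicted miRNA on the other strand. The strand setting of the counting is not given in the sources used here, so reads of these 6 genes and of their partners may not have been told apart.

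Promoter windows were taken from RefSeq (GRCm38.p6) for Twist1, Twist2, Prrx1, Tcf21 and Meox2. The 250 bases before the annotated start are shown for 4 of them: the related genes Twist1 and Twist2, Tcf21, which had no counts, and Meox2, which passed the test of replicate number. Capitals mark the E-box letters CANNTG and the TATA letters TATAAA, searched on both strands.
Twist1 (chr12:33957421-33957670, plus strand): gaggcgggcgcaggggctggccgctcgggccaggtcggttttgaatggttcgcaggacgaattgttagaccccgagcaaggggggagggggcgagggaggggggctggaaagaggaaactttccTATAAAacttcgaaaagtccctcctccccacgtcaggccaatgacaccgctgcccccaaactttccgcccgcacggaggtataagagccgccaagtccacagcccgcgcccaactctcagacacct
Twist2 (chr1:91801211-91801460, plus strand): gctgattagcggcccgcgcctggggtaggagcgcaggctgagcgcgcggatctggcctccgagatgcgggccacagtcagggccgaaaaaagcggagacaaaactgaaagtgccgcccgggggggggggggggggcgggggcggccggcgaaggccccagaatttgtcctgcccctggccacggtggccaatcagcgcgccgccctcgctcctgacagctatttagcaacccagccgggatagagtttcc
Tcf21 (chr10:22820144-22820393, minus strand): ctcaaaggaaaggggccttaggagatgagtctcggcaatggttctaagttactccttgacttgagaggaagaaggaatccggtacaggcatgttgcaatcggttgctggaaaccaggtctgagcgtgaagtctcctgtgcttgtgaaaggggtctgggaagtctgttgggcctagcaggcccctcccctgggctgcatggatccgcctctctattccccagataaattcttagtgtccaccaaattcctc
Meox2 (chr12:37108290-37108539, plus strand): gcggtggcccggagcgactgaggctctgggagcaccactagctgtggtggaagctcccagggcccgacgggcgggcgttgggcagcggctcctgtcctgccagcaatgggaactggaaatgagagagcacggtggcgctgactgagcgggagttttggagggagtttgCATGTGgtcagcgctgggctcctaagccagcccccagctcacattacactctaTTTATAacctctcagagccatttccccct
The Twist1 window held TATAAA once, and the Meox2 window held it once on the other strand (TTTATA) together with 1 E-box, CATGTG. No match of either motif was found in the windows of Twist2, Prrx1 and Tcf21. Among 32851 RefSeq windows of this length, CANNTG occurred in 66.2% and TATAAA in 12.4%. CAGGTG, an E-box known for Snai2, occurred in 17.2% of all windows and in none of these 5. The windows also differed in CpG dinucleotides, with 23 in Twist2, 18 in Twist1, 12 in Meox2, 5 in Tcf21 and 4 in Prrx1, beside a median of 6 over all windows.

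Of the 10 factors 9 had counts in every library, and Tcf21 had 0 counts in all 18. A count of 0 allows up to 3 counts, which is 0.145 to 0.808 CPM depending on the library, so Tcf21 RNA lay below those levels. Its close relative Msc was nearly as low, with 0 counts in 13 libraries and at most 3. Levels of different genes were compared per length, as RPKM (CPM per kilobase of exon) over the 15 libraries. With all annotated exons as the length, Tbx15 was highest at 32.2 ± 1.46 RPKM (SD, n = 15), followed by Twist1 at 21.9 ± 1.53, Prrx1 at 11.4 ± 1.15, Snai2 at 8.83 ± 1.79 and Osr1 at 4.07 ± 0.435. Meox2 at 2.51 ± 0.727, Twist2 at 2.28 ± 0.302, Foxf1 at 1.79 ± 0.176 and Tbx5 at 0.922 ± 0.193 RPKM formed the low end. In this order each gene exceeded the next in at least 13 of 15 libraries, except that Meox2 exceeded Twist2 in 7 of 15, so these neighbours did not differ beyond their spread.

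The order depends on the length chosen for genes with long or alternative exons. With the canonical transcript alone, Tbx15 stayed highest at 43.7 ± 1.99 RPKM, and Prrx1 at 31.8 ± 3.19 came next, above Twist1. Osr1 at 16.4 ± 1.75 and Twist2 at 9.5 ± 1.26 then lay above Snai2. Twist2 exceeded Snai2, the next in order, in 9 of 15 libraries. On either length Twist1 lay above Twist2, Tbx15 above Tbx5, and Foxf1 and Tbx5 stayed the lowest of the 9.

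**Figure D1:**
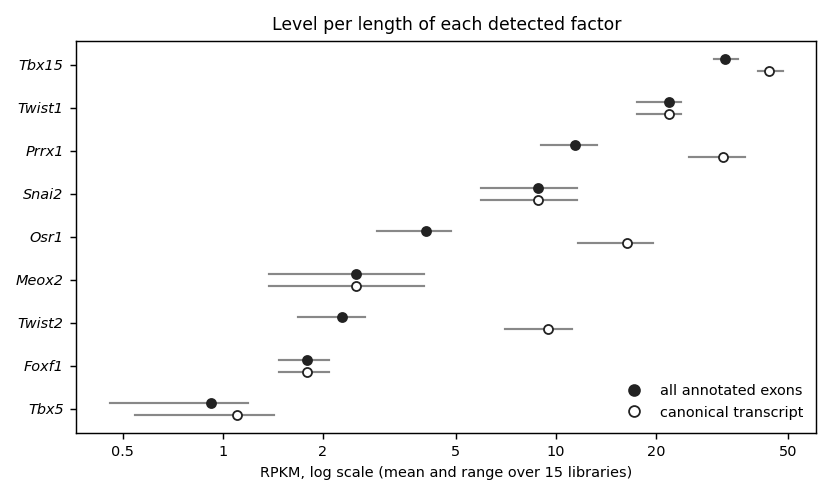
Level per length of the 9 detected factors, in RPKM on a log axis, with the mean (points) and the range (lines) over 15 libraries. Filled points use all annotated exons and open points the canonical transcript; Tbx15 leads on both, while Prrx1 moves from 11.4 to 31.8 RPKM and Twist2 from 2.28 to 9.5.

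Among the bHLH factors, Twist1, needed for neural tube closure and limb outgrowth, had 28.9 to 37.7 CPM in controls (median 35.2), 30 to 39.3 at 10 µM (median 37.3) and 34.5 to 37.7 at 30 µM (median 36.5). The ranges of the 3 doses overlapped throughout, and the lowest value was that of control replicate 6. Twist2, a dermal mesenchyme factor, had 9.38 to 17 CPM in controls (median 12.2), 11 to 13.9 at 10 µM (median 12.9) and 12 to 14.9 at 30 µM (median 14.2). Its highest value was that of control replicate 1, and without it the controls reached at most 13.6 CPM.

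The homeobox factor Prrx1 had 417, 211, 221, 173, 180 and 162 CPM in control replicates 1 to 6. It had 206, 203, 196, 176, 184 and 249 CPM at 10 µM, and 202, 191, 195, 189, 150 and 214 CPM at 30 µM. The highest value at each dose was that of the library with the raised unaligned share, and the other 15 libraries lay between 150 and 221 CPM. Meox2 had 6.19, 5.24, 4.73, 6.05, 9.53 and 6.39 CPM in controls, 5.59, 6.03, 4.41, 5.12, 9.39 and 8.83 at 10 µM, and 5.98, 5.17, 3.27, 4.72, 7.39 and 5.11 at 30 µM. Replicate number 5 was the highest at every dose, while the doses overlapped. These levels rest on 23 to 138 Meox2 counts per library.

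Of the zinc finger factors, Osr1, a factor of intermediate mesoderm and limb connective tissue, had 23.8 to 48.2 CPM in controls (median 34.4), 29.3 to 35.7 at 10 µM (median 32.8) and 31.8 to 39.7 at 30 µM (median 34.2). Both extremes were controls, replicate 6 at the bottom and replicate 1 at the top. Snai2 had 59.8, 26.6, 26.8, 15, 23.7 and 25.8 CPM in controls, 17.6, 21.7, 18.8, 15.8, 22.9 and 31.4 at 10 µM, and 19.1, 19.3, 18, 21.6, 13.8 and 26.5 at 30 µM. Control replicate 1 stood above every other library, and the remaining controls overlapped both uracil groups. Foxf1 had 3.83 to 5.66 CPM in controls (median 4.42), 3.63 to 5.14 at 10 µM (median 4.48) and 4.02 to 5.16 at 30 µM (median 4.57), from 21 to 86 counts per library.

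The T-box factors differed in how steady they were. Tbx15, a factor of limb, trunk dermis and fat depots, had 161 to 184 CPM in controls (median 173), 166 to 190 at 10 µM (median 171) and 156 to 181 at 30 µM (median 170), and its coefficient of variation over 18 libraries, 5.03%, was the smallest of the 9. Tbx5 had 3.71 to 4.98 CPM in controls (median 4.44), 2.15 to 5.17 at 10 µM (median 4.44) and 3.24 to 5.6 at 30 µM (median 5.21), with a coefficient of variation of 19.4% on 18 to 97 counts. Replicate number 4 was the lowest at every dose for Tbx5. The coefficient was 43.3% for Snai2 and 27.7% for Prrx1, and it fell to 20.3% and 10% over the 15 libraries.

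**Figure D2:**
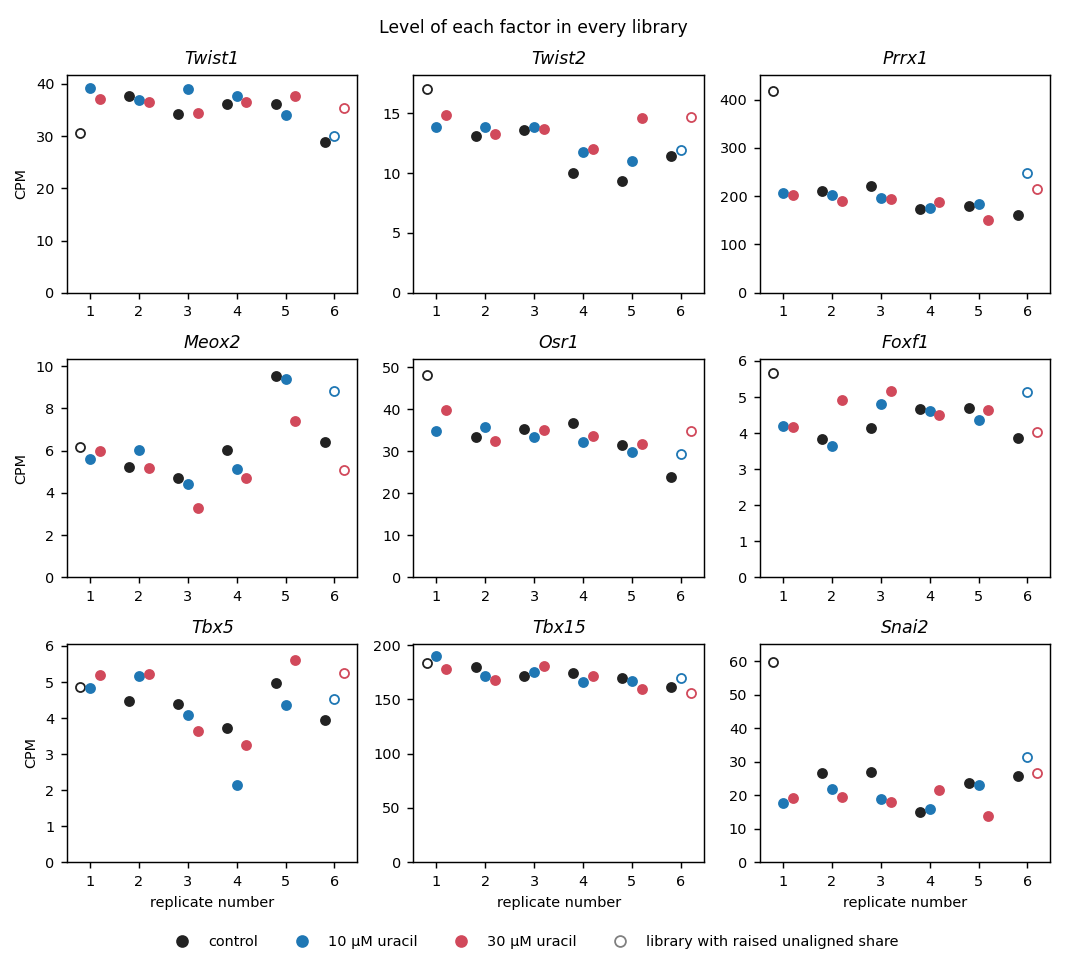
CPM of the 9 detected factors (one panel each, axis from 0) against replicate number, with 1 point per library coloured by dose and open points for the 3 libraries with a raised unaligned share. The doses overlap in every panel, Meox2 is highest in replicate number 5 at every dose, and control replicate 1 stands apart at 417 CPM for Prrx1 and 59.8 CPM for Snai2.

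Tested across all 13865 genes that passed the filter on low counts, none of the 9 detected factors passed at either dose. All 9 passed that filter, and Tcf21 could not be tested. In edgeR's quasi-likelihood test with Benjamini-Hochberg adjustment, 0 of 9 were called at 10 µM against control (background 0% of genes), 0 of 9 at 30 µM against control (0%), 0 of 9 at 30 µM against 10 µM (0%) and 0 of 9 for any difference among the doses (0%). DESeq2 and limma voom also called 0 of 9 in each (0% of genes). At an unadjusted p under 0.05 the counts were 0 of 9 at 10 µM (0.692% of all genes), 1 of 9 at 30 µM (4.29%), 0 of 9 between the doses (2.33%) and 0 of 9 for any difference (1.53%). The factors were split in direction, with 4 higher and 5 lower at 10 µM and 5 higher and 4 lower at 30 µM, and their median log2 fold changes were -0.003 and 0.005, beside 0.006 and 0.012 over all genes. Both comparisons use the same controls.

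In the edgeR fit with dose alone, Snai2 was the factor with an unadjusted p under 0.05 over the 18 libraries. Over the 15 libraries 2 of 9 were under 0.05 at 30 µM (edgeR), Twist2 and Snai2, beside 602 of 13888 genes. Over 18 libraries the log2 fold change of Snai2 at 30 µM was -0.55 ± 0.25 (SE; 95% interval -1.08 to -0.02; edgeR, unadjusted p 0.0421, adjusted p 0.931), and at 10 µM it was -0.43 ± 0.25 (-0.95 to 0.10; adjusted p 1.00). Leaving out control replicate 1 alone moved the value at 30 µM to -0.27, with an adjusted p of 0.999. Over the 15 libraries the value at 30 µM was -0.37 ± 0.15 (-0.69 to -0.05, edgeR, unadjusted p 0.0260, adjusted p 0.944). Without control replicate 1 and 30 µM replicate 6 the value was -0.37 ± 0.185 (-0.76 to 0.03, edgeR, unadjusted p 0.0653). With replicate number added to the model of 18 libraries it was -0.50 ± 0.24 (-1.03 to 0.03, edgeR, unadjusted p 0.0633). The interval of Snai2 thus spanned 0 in both of these fits.

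Twist2 at 30 µM had a log2 fold change of 0.18 ± 0.12 (SE; 95% interval -0.06 to 0.43; edgeR, adjusted p 0.932) over 18 libraries and of 0.24 ± 0.11 (0.02 to 0.46; unadjusted p 0.0355, adjusted p 0.944) over 15. Without control replicate 1 and 30 µM replicate 6 its value was 0.25 ± 0.11 (0.02 to 0.47). The unadjusted edgeR p was then 0.0323, with 289 of 13935 genes under 0.05, and the adjusted p was 0.994. Prrx1 at 30 µM was at -0.25 ± 0.18 (-0.63 to 0.13) over 18 libraries and at -0.04 ± 0.09 (-0.23 to 0.15) over 15. Meox2 at 30 µM was at -0.26 ± 0.22 (-0.72 to 0.20), the widest interval after Snai2. The narrowest was that of Tbx15, at -0.04 ± 0.05 (-0.15 to 0.08) at 30 µM and 0.00 ± 0.05 (-0.11 to 0.11) at 10 µM. Twist1 at 30 µM was at 0.09 ± 0.08 (-0.07 to 0.25). For the remaining factors at 30 µM the values were 0.01 for Osr1, 0.06 for Foxf1 and 0.10 for Tbx5, all with intervals that span 0. With replicate number added to the model, Meox2 at 30 µM was at -0.26 ± 0.11 (-0.50 to -0.01). Against 10 µM it was then at -0.288 ± 0.111 (-0.525 to -0.051). The unadjusted edgeR p were 0.0407 (937 of 13865 genes under 0.05) and 0.0204 (588 of 13865). Adjusted p were 0.656 and 0.820.

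**Figure D3:**
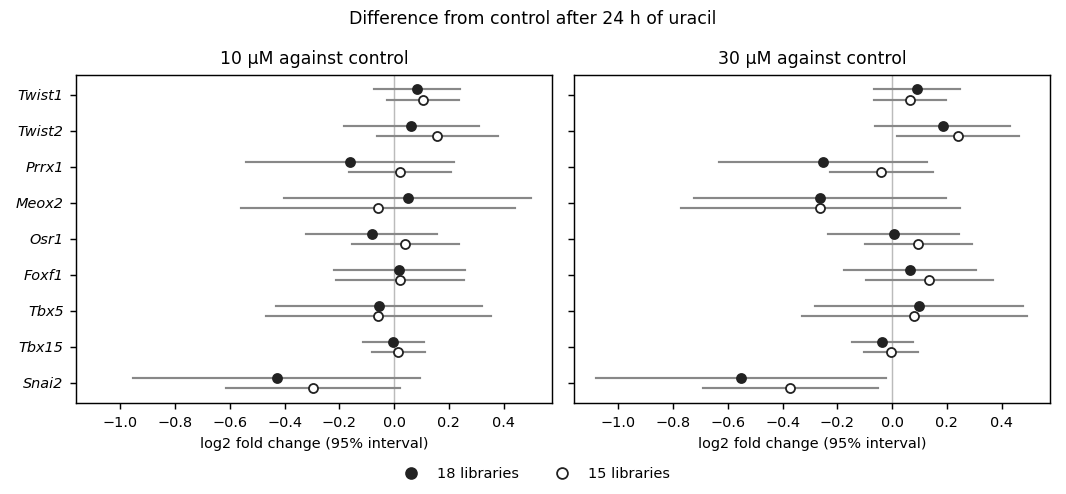
Log2 fold change of each detected factor against control at 10 µM (left) and 30 µM (right), with lines for the 95% interval of the edgeR fit; filled points use 18 libraries and open points 15. Intervals span 0 apart from Snai2 at 30 µM, and Twist2 at 30 µM over 15 libraries (0.02 to 0.46), and no factor passed after adjustment.

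The factors were also tested for differences among the 6 replicate numbers, in an additive edgeR model with dose. Of the 9 factors 1 passed, a share near the background of 12.6% of genes (1745 of 13865). That factor was Meox2 (adjusted p 0.00263), with means of 8.77 ± 1.2 CPM in number 5, 6.78 ± 1.89 in number 6, 5.92 ± 0.307 in number 1, 5.48 ± 0.481 in number 2, 5.3 ± 0.684 in number 4 and 4.14 ± 0.766 in number 3 (SD, 3 libraries each). Adjusted p was 0.0597 for Tbx5 and 0.157 for Osr1, and it was 0.925 for Foxf1. In Tbx5 the mean was 3.04 ± 0.8 CPM in number 4 and 4.04 to 4.98 CPM in the others.

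Over the 15 libraries 4 of 9 passed, beside a background of 20.8% (2890 of 13888 genes): Meox2 (adjusted p 1.03e-04), Osr1 (0.00416), Prrx1 (0.00825) and Tbx5 (0.0229). In that set number 6 is a single library and number 1 has 2. Meox2 in number 5 (7.39 to 9.53 CPM) then lay above all other libraries (3.27 to 6.39). Prrx1 had 191 to 221 CPM in numbers 1, 2 and 3 and 150 to 189 in numbers 4, 5 and 6, and Osr1 had its lowest value, 23.8 CPM, in number 6. The labels say nothing of what the numbers stand for beyond replicates. The 5 mesothelial markers (Upk3b, Msln, Lrrn4, Krt19 and Upk1b), all past the number test, summed to 350 to 390 CPM in number 5, 279 to 301 in number 4, 263 to 293 in number 6 and 113 to 163 in numbers 1, 2 and 3. Epithelial markers summed to 33.4 to 42 CPM in number 5, 23.5 to 35.3 in number 4, 20.7 to 26.8 in number 6 and 5.82 to 15.6 in numbers 1, 2 and 3. Over 18 libraries only 2 of these 6 markers had enough counts to be tested. By number Krt14 passed (edgeR, adjusted p 1.82e-08) and Krt8 did not (0.187). Both marker sums lay above those of numbers 1, 2 and 3 in numbers 4 and 6 as well. Over 18 libraries Meox2 had 4.72 to 6.05 CPM in number 4 and 5.11 to 8.83 in number 6, beside 3.27 to 6.19 in numbers 1, 2 and 3. The part of either marker sum in the Meox2 result was not tested, and in bulk RNA fewer cells of a type and less RNA per cell cannot be told apart.

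The factors around these 9 were read from lists of related genes, and at either dose 0 genes of any list passed the edgeR test (background 0% of genes). The counts by replicate number that follow stand beside a background of 12.6% of genes over 18 libraries and 20.8% over 15. Of the closest relatives, 4 of 7 tested passed by replicate number over 18 libraries and 4 of 7 over 15. Tbx4, the hindlimb counterpart of Tbx5, had 4.03 to 6.14 CPM in numbers 1, 2 and 3 and 1.26 to 2.96 in numbers 4, 5 and 6 (adjusted p 8.22e-06). Meox1, the somite partner of Meox2, had 9.16 to 11.1 CPM in number 5, 8.08 to 9.04 in number 6 and 4.09 to 6.16 in the others (adjusted p 5.21e-05). Meox1 thus shared with Meox2 its highest level in number 5. Prrx2, which overlaps Prrx1 in limb and face mesenchyme, averaged 79.6 ± 2.96 CPM in number 1 and 48.8 ± 7.8 in number 6 (adjusted p 0.00143), or 78 and 45.7 CPM over the 15 libraries.

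Among the bHLH partners and their Id antagonists, 2 of 7 passed by number (background 12.6%), and 5 of 7 over the 15 libraries (20.8%). Id4, which holds bHLH proteins off DNA, had 7.98 to 8.62 CPM in number 1 and 3.71 to 4.17 in number 6 (adjusted p 8.85e-04). Tcf3, a dimer partner of Twist proteins, averaged 230 ± 92.2 CPM in number 6 and 135 to 171 in the other numbers (adjusted p 0.0292), but over the 15 libraries number 6 was at 169 CPM and number 5 at 171. Of the limb field factors 3 of 13 passed (background 12.6%), and over the 15 libraries 5 of 13 (20.8%), with Tbx3 and Lhx9 added. Hand2, an activator of the posterior limb signal, averaged 9.25 ± 0.596 CPM in number 5 and 3.74 ± 1.11 in number 3 (adjusted p 0.00191). Shox2 averaged 11.1 ± 1.2 CPM in number 5 and 6.87 ± 0.676 in number 3, and Alx4, an anterior limb factor, averaged 1.2 ± 0.222 CPM in number 1 and 0.126 ± 0.111 in number 6, or 1.13 and 0.168 over the 15 libraries.

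Of 11 heart, gut and body-wall factors only 5 had enough counts to be tested, and 4 of these 5 passed by number, over 18 libraries (background 12.6%) and over 15 (20.8%). Wt1, a mesothelial and epicardial factor, had 4.31 to 6.65 CPM in numbers 1, 2 and 3 and 8.88 to 14.7 in numbers 4, 5 and 6 (adjusted p 5.02e-06). Number 6, which holds 2 of the 3 doubted libraries, had the highest mean of Gata4 (2.11 ± 0.64 CPM), Gata6 (53.4 ± 13.2) and Nr2f1 (8.33 ± 1.79). Over the 15 libraries these means were 1.51, 43.3 and 6.65 CPM, and number 5 was then the highest for Gata4 (1.68 CPM, beside 0.643 in number 1) and Gata6 (48.7 CPM, beside 33.1 in number 3), while Nr2f1 stayed highest in number 6 (3.59 in number 1). Nr2f2 did not pass (adjusted p 0.246), with 20.7 to 69.5 CPM over 18 libraries and at most 32.7 over 15. The heart and left-right factors Hand1 and Nkx2-5 had 0 counts in all 18 libraries.

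Of the head and skeletal factors 1 of 6 tested passed by number (background 12.6%), and 2 of 6 over the 15 libraries (20.8%), with Sox9 added. This was Eya1, with 27.3 ± 1.49 CPM in number 1 and 19.1 ± 0.633 in number 5 (adjusted p 0.0209). Of the genes that act with Snai2 in the epithelial-mesenchymal switch, 1 of 5 tested passed (background 12.6%), and 3 of 5 over the 15 libraries (20.8%). Cdh11, the mesenchymal cadherin, had 316 to 326 CPM in number 5, 293 to 364 in number 6 and 451 to 531 in the others (adjusted p 2.75e-05). Cdh1, the epithelial cadherin that Snai2 represses, had 0.509 to 3.37 CPM, and Cdh2 had 182 to 258 CPM, or up to 231 over the 15 libraries (adjusted p 0.254 and 0.104). The repressors Zeb1 and Zeb2 had adjusted p 0.313 and 0.0585 over 18 libraries, and both passed over the 15 (0.0108 and 2.71e-04). In the hedgehog and BMP pathways 4 of 13 passed (background 12.6%). Over the 15 libraries 5 of 13 did (20.8%), with Gli2 lost and Ptch1 and Gli3 gained. The smallest p was that of Hhip, the hedgehog antagonist, at 20.3 ± 2.82 CPM in number 5 and 8.41 ± 0.638 in number 3. Bmp4 averaged 53.1 ± 0.921 CPM in number 5 and 33.8 ± 2 in number 6, which was at 36 CPM over the 15 libraries. Gli1, a hedgehog target, averaged 2.6 ± 1.12 CPM in number 6 and 0.715 ± 0.41 in number 1, and over the 15 libraries number 5 was its highest at 2.32 CPM, beside 0.937 in number 1.

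**Figure D4:**
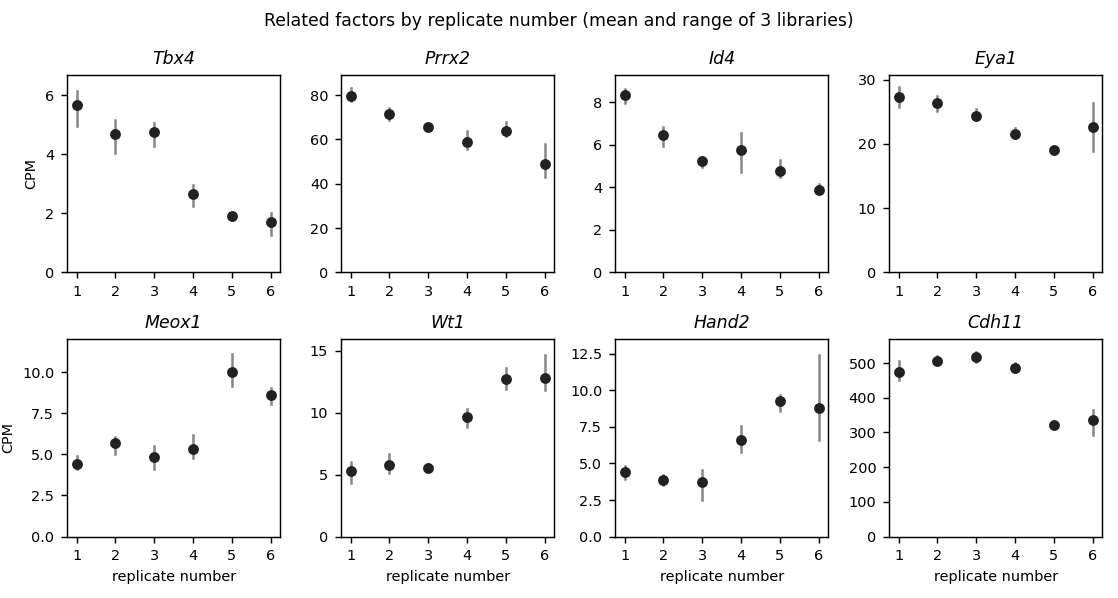
CPM of 8 related genes past the replicate number test (one panel each, axis from 0), with the mean (points) and range (lines) of the 3 libraries of each number. Tbx4 stays above 4.03 CPM in numbers 1 to 3 and below 2.96 in numbers 4 to 6, while Wt1 shows 4.31 to 6.65 and 8.88 to 14.7 CPM, and Meox1 is highest and Cdh11 lowest on average in number 5.

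The genes whose levels were most like those of each factor were found from log2 CPM centred within each dose, over the 15 libraries and 12964 genes. These libraries share numbers and depth, so the values are descriptions. Prrx1 was most like Zeb2 (Pearson r 0.954), the repressor named above, and Cib2 (0.954). Meox2 was most like Sesn1 (0.928), a stress-induced gene, and Pltp (0.921), which encodes a phospholipid transfer protein. Snai2 was most like Morf4l1 (0.974), a chromatin protein gene, Med13 (0.96), a Mediator subunit gene, and Prpf39 (0.929), a splicing factor gene. The highest r was 0.916 for Twist1 (Calhm5), 0.898 for Osr1 (Serf1), 0.887 for Twist2 (Spire1) and 0.855 for Tbx5 (Ltbp1). It was 0.909 for Tbx15 (Hspa13) and 0.831 for Foxf1 (Srfbp1).

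The 3 libraries with raised unaligned shares differed from the others of their dose in particular factors. In control replicate 1, 6 of the 9 factors lay above all other controls and 0 lay below. The share of all genes in that position was not computed, so this count describes the library and is no trait of the factors. Prrx1 was there at 2.32 times and Snai2 at 2.31 times the median of the other 5 controls, Twist2 at 1.49 times, Osr1 at 1.44 times and Foxf1 at 1.36 times. In 10 µM replicate 6 Snai2 was at 1.67 times and Prrx1 at 1.27 times the median of the other 10 µM libraries, and in 30 µM replicate 6 they were at 1.38 and 1.12 times the median of the other 30 µM libraries. Snai2 and Prrx1 thus lay above the range of their dose in each of the 3 libraries. Twist1 and Osr1 lay below it in 10 µM replicate 6, at 0.796 and 0.878 times, and Foxf1 and Tbx15 lay below it in 30 µM replicate 6, at 0.869 and 0.907 times. The part of the unaligned share in these values was not tested.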

How the data were processed

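Total RNA of MEFs was sequenced by the authors as stranded, rRNA-depleted, paired-end libraries. They deposited raw counts, integer numbers of read pairs for each Ensembl gene, with no normalisation. The submitters' processing notes name FastQC, HISAT2, SAMtools 1.2, HTSeq and the build GRCh38, a human build, whereas the gene identifiers are mouse. The annotation release is not given in the sources used here. All 18 count columns matched a sample by title, and 0 columns matched none. Uncounted entries were left out of library sizes: unaligned pairs (1.717% to 54.21%), pairs outside genes (6.851% to 15.55%), ambiguous pairs (0.5035% to 1.641%), low quality pairs (4.793% to 13.11%) and multiply aligned pairs (5.586% to 20.16%).

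Samples were grouped by the dose in their titles, and the study describes its replicates as biological. Counts were fitted in R 4.3.3 with edgeR 4.0.16 (filterByExpr, TMM, robust quasi-likelihood) over all 18 libraries, and dose was the sole covariate. Dose contrasts were two-sided. Replicate number was tested by an F test in an additive model with dose. P-values were adjusted by Benjamini-Hochberg over all genes tested, with a threshold of 0.05. Each standard error was taken as the log2 fold change over the square root of F. CPM are TMM-scaled counts, and RPKM divides them by exon length (GENCODE M39). The limit of 3 counts and the intervals cover counting or sampling error only. Sequences came from the RefSeq promoter table.

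The factors and the lists of related genes were chosen with earlier results of these data known. All 10 factors were named. Other genes were named if they passed the number test and were among the 3 of their list with the smallest p, or if their list had 5 or fewer tested genes. The 3 genes most like each factor could be named. Msc, Hand1, Nkx2-5, Tbx3, Lhx9, Sox9, Gli2, Gli3, Ptch1 and the marker genes were named after their values were seen. Alternatives were DESeq2 1.42.0, RLE size factors, library totals alone, no filter, a filter of 10 or more counts in all libraries, limma voom (limma 3.58.1) with quality weights, 2 or 3 libraries left out, a block on replicate number, only the groups compared, and each library left out. The canonical transcript as length was added after seeing the data. The scripts were tested on simulated data.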

Additional observations from a re-analysis of the deposited data

Results flagged for a closer look

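In all, 30 groups of 6 libraries, those of the 9 detected factors and of the unaligned share at each dose, were examined for a library far from the other 5 by Dixon's ratio (critical value 0.625). Of these 30 groups 8 were past it. Chance alone puts about 1 in 20 groups past it, but the groups share libraries. The unaligned share, which makes up 3 of the 8 groups, had already been used to single out 3 libraries. The share of all genes past the ratio was not computed, so the number of groups is a description and no trait of the factors. Control replicate 1 stood out for Prrx1, at 417 CPM beside 162 to 221 in the other controls, and for Snai2, at 59.8 CPM beside 15 to 26.8. The same library stood out for its unaligned share, 54.2% beside 1.96% to 3.09%, as did 10 µM replicate 6 (5.24% beside 1.72% to 2.46%) and 30 µM replicate 6 (37.9% beside 2.13% to 3.59%).

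Another 3 values came from libraries with an ordinary unaligned share. Meox2 reached 9.53 CPM in control replicate 5 beside 4.73 to 6.39, Tbx5 was at 2.15 CPM in 10 µM replicate 4 beside 4.09 to 5.17, and Tbx15 was at 190 CPM in 10 µM replicate 1 beside 166 to 175.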

How the results depend on the processing

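The count of factors past the threshold in the dose contrasts was 0 under every alternative run, and so was the share of all genes called (0%). These counts thus set the factors apart from other genes in no way. The count by replicate number was 1 with all libraries and edgeR (12.6% of all genes called), 2 with DESeq2 (Meox2, Tbx5; 21.6%), 2 with library totals alone (Meox2, Osr1; 11.4%), 7 with voom weights (43.0%), 4 without the 3 doubted libraries (20.8%), 4 without control replicate 1 and 30 µM replicate 6 (Twist1, Meox2, Osr1, Tbx5; 23.6%), and 1 to 2 with each library left out (9.08% to 25.0%). It was 2 without control replicate 1 (25.0%), control replicate 4 (10.2%) or control replicate 6 (23.3%), with Tbx5 added. Meox2 was called in each of these.

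No dose difference passed the test, and log2 fold changes near 0 changed sign. At 10 µM without the 3 libraries, Prrx1 was at 0.022, Meox2 at -0.058, Osr1 at 0.041 and Tbx15 at 0.015. Without 2 libraries Prrx1 was at 0.096, Osr1 at 0.019 and Tbx15 at 0.016. With voom Meox2 was at -0.04, Osr1 at 0.03 and Tbx15 at 0.011 at 10 µM, and Tbx15 at 0.012 at 30 µM. With library totals Tbx15 was at 0.01 at 10 µM and Osr1 at -0.012 at 30 µM, and with no filter Tbx15 was at 0.015 at 10 µM. Leaving out each library gave ranges at 10 µM of -0.24 to 0.091 (Prrx1), -0.08 to 0.22 (Meox2), -0.17 to 0.015 (Osr1), -0.023 to 0.071 (Foxf1), -0.12 to 0.075 (Tbx5) and -0.032 to 0.011 (Tbx15), and at 30 µM of -0.33 to 0.00035 (Prrx1) and -0.083 to 0.1 (Osr1). Prrx1 turned without control replicate 1 at both doses. The cause was not tested.

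The labels give every dose the numbers 1 to 6. Deviations from the dose means correlated by -0.136 to 0.732 in the 18 same-number pairs, with 16 over 0.1. The 2 others involve control replicate 1, and without the 3 libraries 13 of 13 pairs were over 0.1 (0.128 to 0.644). The median of these 13 was 0.481, beside 0.028 for pairs of other numbers. Libraries of a number thus tended to be alike, but the labels do not state a pairing. The main dose tests left the numbers unpaired, like the one-way comparisons of the study, and the block was run as an alternative. Of the 18 libraries 14 correlated best with their own number, a hint from the data. With a replicate block, 0 of 9 factors passed at either dose (0% of genes). Meox2 at 30 µM was then at -0.26 ± 0.11 (95% interval -0.50 to -0.01, edgeR, unadjusted p 0.0407, adjusted p 0.656), beside an SE of 0.22 without the block. Its level was under that of the like-numbered control in 6 of 6 numbers. With the block and without the 3 libraries, at 10 µM Meox2 was at -0.071, and at 30 µM Twist1 was at -0.0023, Osr1 at -0.024 and Tbx5 at -0.0029. In that fit 3 intervals at 30 µM left out 0. They were those of Twist2 at 0.212 (0.022 to 0.401), Meox2 at -0.267 (-0.505 to -0.028) and Prrx1 at -0.117 (-0.232 to -0.001). Thus 3 of 9 had an unadjusted edgeR p under 0.05, beside 604 of 13888 genes. After adjustment 0 of 9 passed (0% of genes). Low counts limit Meox2, Foxf1 and Tbx5, whose shallowest libraries held 23, 21 and 18 counts.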
